A study of Gallus gallus with 3 samples.

Results

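The HOX genes encode homeodomain transcription factors that give cells along the head-to-tail axis their positional identity. The values described here are those of the 26 genes of the FPKM table whose symbols begin with HOX, a cluster letter from A to D and a number, among 15675 genes with values. The rule that took them used the symbol alone and not their levels, but it was chosen with earlier results of these data known. They comprise 8 genes of the HOXA cluster, 9 of HOXB, 5 of HOXC and 4 of HOXD, with paralogue numbers from 1 to 9. The other chicken HOX genes, those numbered above 9 included, have no values under such a symbol in the table and could not be analysed.

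The study set 28-week-old breeder hens of the Leuang Hang Kao chicken held at 36 °C for 6 h against hens kept at 23 °C, with 25 hens per arm, and sampled their jejunal mucosa. The 3 libraries used here are all of the thermoneutral control arm, and libraries of heated hens were not analysed here. Each library was made from the pooled RNA of 4 hens, so that 3 pools represent the 12 sampled control hens and the SD is a spread between pools, not between birds. All libraries come from 1 stretch of the gut, so levels could not be compared along the intestine, and with 1 group nothing was tested between conditions. Values are FPKM, read fragments scaled to transcript length and library size, and the sequencing depth is unknown.

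In chicken and mouse the HOX genes lie in 4 clusters, and genes of the same number in different clusters are paralogues. Their order along the chromosome follows the order in which they are expressed along the body, low numbers toward the head and high numbers toward the tail. In the embryonic gut of chick and mouse they are expressed in nested domains, in the mesoderm that forms muscle and stroma and also in the endoderm, and the highest numbers mark the hindgut and cloaca. The proteins bind DNA together with PBX and MEIS cofactors, CDX factors and retinoic acid act upstream, and Polycomb and MLL complexes keep the clusters silent or active.

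The HOX genes detected in control jejunum were mainly those numbered 4 to 7 in the HOXA, HOXB and HOXC clusters, all at low levels. Of the 26 genes, 13 had a mean of at least 1 FPKM, which is 50.0% against 73.8% over the whole table. Among the 11 genes numbered 4 to 7 in these 3 clusters, 10 reached that mean, and HOXA6 was the exception at 0.840 ± 0.472 FPKM (SD, n = 3). Of the 6 genes numbered 1 to 3 in the same clusters, 3 reached it, of the 5 genes numbered 8 or 9 none did, and none of the 4 HOXD genes did. The members just above that level were HOXA2, at 1.18 ± 0.802, and HOXB2, at 1.24 ± 0.459, and the one just below it was HOXB3, at 0.987 ± 0.461. The highest mean of any HOX gene, 5.11 FPKM for HOXB4, stood below the median over the whole table, 6.64 FPKM.

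**Figure D1:**
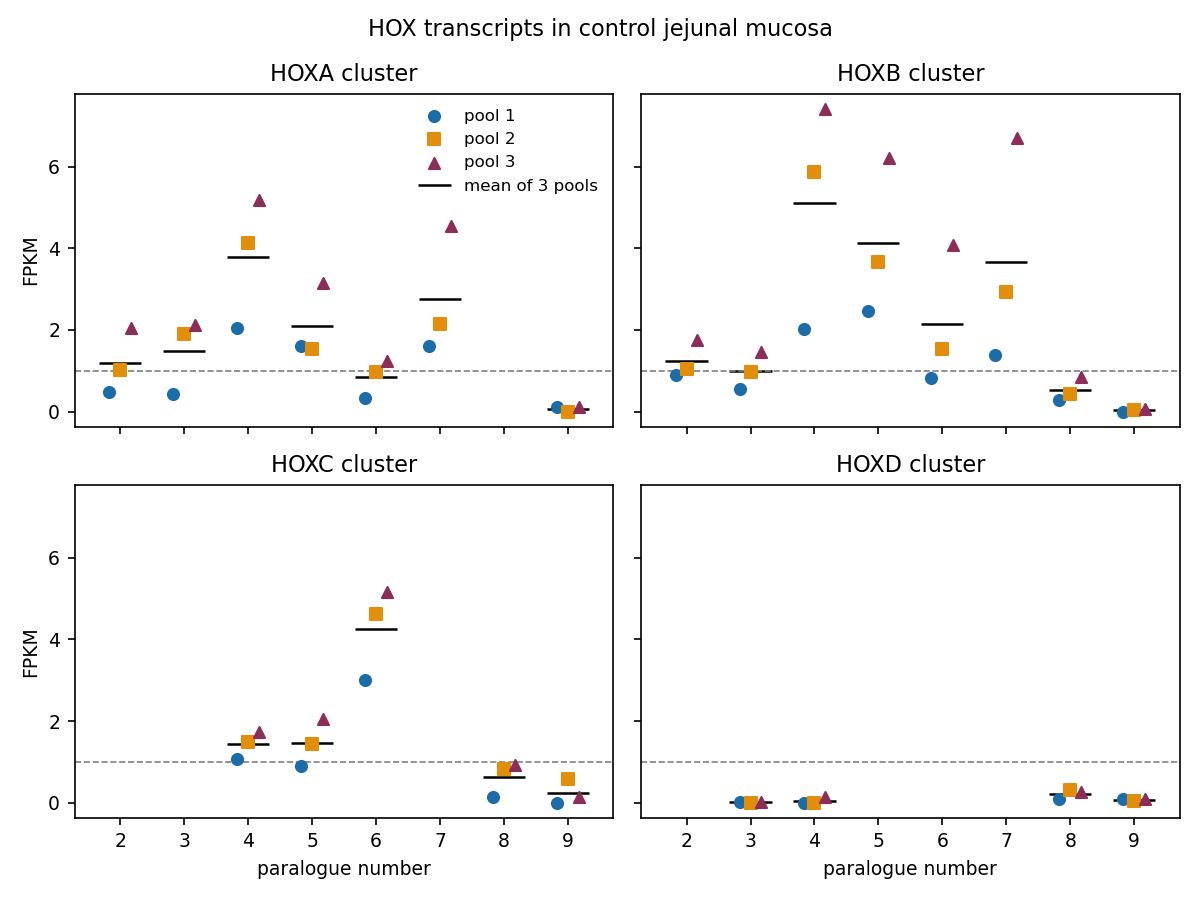
FPKM of the HOX genes numbered 2 to 9 (y axis, linear) by paralogue number (x axis), 1 panel per cluster; points are the 3 control pools, bars their mean, and the dashed line marks 1 FPKM. In the HOXA, HOXB and HOXC clusters the highest means are those of HOXA4, HOXB4 and HOXC6, genes numbered 8 and 9 stay under 1 FPKM in every pool, and no HOXD gene exceeds 0.32 FPKM.

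In the HOXA cluster, levels were highest at HOXA4 and HOXA7. HOXA4, overexpression of which gives an enlarged colon in mice, was at 2.05, 4.12 and 5.17 FPKM in pools 1, 2 and 3. HOXA7, a gene of trunk identity, was at 1.60, 2.15 and 4.55 FPKM. HOXA5, which in mice is needed for lung development and for the timing of gut maturation, was at 1.61, 1.54 and 3.15 FPKM. Pool 3 was the highest for all of these, and HOXA5 was alone among the 13 in having pool 2 as its lowest. The more anterior HOXA2, a gene of neural crest and the second branchial arch, was at 0.47, 1.02 and 2.05 FPKM, and HOXA3, required for thymus and parathyroid in mice, at 0.43, 1.89 and 2.11 FPKM. At the other end, HOXA9, a gene of the posterior trunk and of blood progenitors, was at 0.10 FPKM in pools 1 and 3 and listed at 0 in pool 2.

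Steps between neighbouring HOXA genes had the same direction in each pool at several places. On the log2(FPKM + 1) scale, HOXA4 exceeded HOXA3 by 0.97 ± 0.14 (SD over 3 pools), HOXA5 minus HOXA4 was -0.60 ± 0.39, and HOXA9 minus HOXA7 was -1.74 ± 0.55. The order of HOXA2 and HOXA3 differed between pools.

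The HOXB cluster carried the largest share of HOX transcripts. HOXB4, known for expanding blood stem cells when raised, was at 2.03, 5.87 and 7.42 FPKM in pools 1, 2 and 3, and HOXB5, a regulator of RET in the enteric neural crest of mouse and human, at 2.47, 3.67 and 6.22 FPKM. HOXB7 was at 1.38, 2.92 and 6.69 FPKM and HOXB6 at 0.83, 1.52 and 4.08 FPKM. For these 4 genes pool 1 was the lowest and pool 3 the highest, and pool 3 held between 2.52 and 4.92 times the FPKM of pool 1. HOXB8 lay between 0.29 and 0.85 FPKM, HOXB1, a hindbrain gene, between 0.17 and 0.26 FPKM, and HOXB9 was listed at 0 in pool 1 and at 0.03 and 0.05 FPKM in the others. Of the 8 steps between neighbouring HOXB genes, 7 had 1 direction in every pool, and the order of HOXB4 and HOXB5 differed between pools. The widest were HOXB4 above HOXB3, by 1.52 ± 0.47 on the log2(FPKM + 1) scale, and HOXB8 minus HOXB7, at -1.46 ± 0.59, followed by HOXB2 above HOXB1, by 0.85 ± 0.28. Within the better detected stretch, HOXB6 minus HOXB5 was -0.77 ± 0.23 and HOXB7 exceeded HOXB6 by 0.54 ± 0.14.

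In the HOXC cluster, HOXC6 stood apart from its neighbours. HOXC6, a gene of the brachial and thoracic level in chick embryos, was at 3.0, 4.62 and 5.17 FPKM in pools 1, 2 and 3 and was the highest HOX gene of pool 1. It exceeded HOXC5 by 1.10 ± 0.09 and HOXC8 minus HOXC6 was -1.71 ± 0.11 on the log2(FPKM + 1) scale, both in every pool. HOXC4, at 1.08, 1.48 and 1.72 FPKM, and HOXC5, at 0.89, 1.45 and 2.05 FPKM, were close, and their order differed between pools. HOXC8 was at 0.13, 0.83 and 0.93 FPKM. HOXC9, which in the chick spinal cord marks the thoracic level behind HOXC6, was listed at 0 in pool 1 and was at 0.58 and 0.14 FPKM in pools 2 and 3.

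HOXD transcripts were near the lower end of the table. HOXD8 was the highest, at 0.08, 0.32 and 0.27 FPKM in pools 1, 2 and 3, and HOXD9 stayed between 0.04 and 0.09 FPKM. HOXD3 was at 0.02 FPKM in pools 1 and 3 and listed at 0 in pool 2, and HOXD4 was listed at 0 in pools 1 and 2 and at 0.14 FPKM in pool 3. HOXD3 lay below HOXA3 and HOXB3, and HOXD4 below HOXA4, HOXB4 and HOXC4, in every pool.

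Summed over genes, HOX transcripts came to 20.7, 37.9 and 58.2 FPKM in pools 1, 2 and 3. HOXB genes held 45.1% ± 3.85 of this sum (SD, n = 3), HOXA genes 32.1% ± 0.453, HOXC genes 21.8% ± 4.05 and HOXD genes 0.921% ± 0.0280. Numbers 4 to 8 held 85.1% ± 0.961, numbers 1 to 3 held 13.8% ± 0.582, and number 9 held 1.10% ± 0.552. The shares of the HOXA and HOXD clusters, of numbers 1 to 3 and of numbers 4 to 8 were nearly the same in pools that differed 2.82-fold in the sum, whereas the HOXC share was 24.7%, 23.6% and 17.2% in pools 1, 2 and 3 and the HOXB share 42.1%, 43.8% and 49.5%. These shares depend on which genes the table holds, for example 4 genes of number 4 and 2 of number 7.

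**Figure D2:**
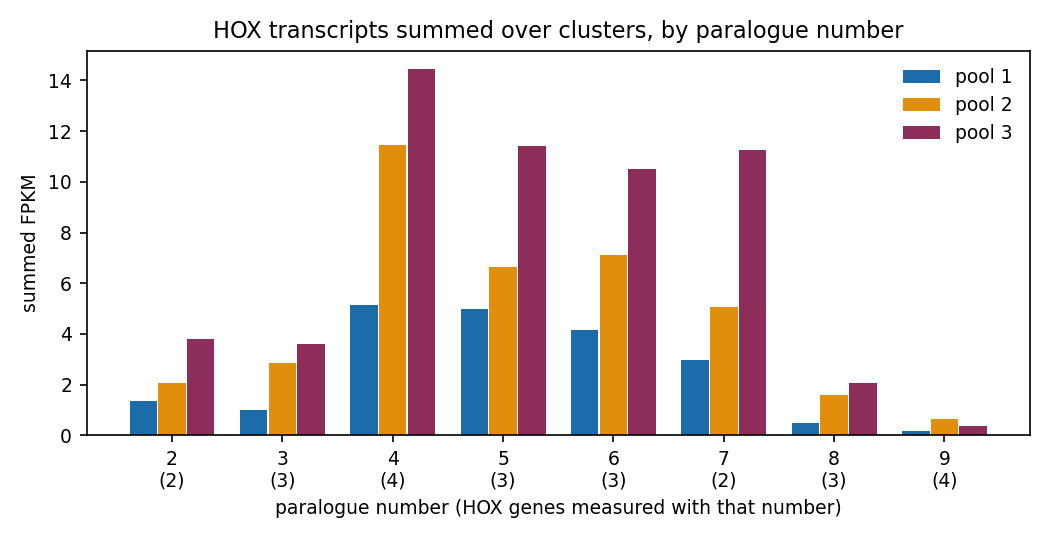
Summed FPKM of the HOX genes of each paralogue number from 2 to 9 (x axis, with the number of genes in brackets) in the 3 control pools (bars, y axis from 0). The sums are highest for number 4, at 5.16, 11.5 and 14.5 FPKM in pools 1, 2 and 3, and drop to 0.50, 1.59 and 2.05 FPKM at number 8.

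Genes of the same number differed between clusters in some cases and not in others. HOXC6 exceeded HOXB6 by 0.86 ± 0.50 and HOXA6 by 1.53 ± 0.07 on the log2(FPKM + 1) scale, and HOXB5 exceeded HOXA5 by 0.70 ± 0.25, with HOXC5 the lowest of that number in every pool. HOXC4 was below HOXA4 and HOXB4 in every pool, with HOXC4 minus HOXB4 at -1.21 ± 0.59. The order of HOXA4 and HOXB4, of HOXA7 and HOXB7, and of HOXA2 and HOXB2 differed between pools. Of 17 neighbouring or same-number pairs with both genes at a mean of at least 1 FPKM, 11 had 1 direction in all 3 pools. No such share was computed for pairs of other genes, and some genes occur in several of the 17 pairs. The count is thus not a trait of HOX genes. The exact two-sided sign-flip permutation test cannot give a p below 0.25 with 3 pools, and after Benjamini-Hochberg adjustment for the 17 pairs the lowest value was 0.386. This test thus allows no pair to reach 0.05, whatever the size of its difference. Ranked by mean, only 1 of the 12 adjacent steps among the 13 genes, HOXA7 above HOXB6, held in every pool. The order of genes next to each other in this ranking is thus mostly not resolved beyond the spread between pools. Some genes further apart in it, such as HOXC6 and HOXC5, kept their order in every pool. In the RefSeq annotation of assembly GRCg7b, a later build than that named for the files, HOXA3 overlaps HOXA4, HOXA5 and HOXA6, HOXB3 overlaps HOXB4, HOXB5 and HOXB6, HOXB5 overlaps HOXB6, and HOXD3 overlaps HOXD4. How the authors assigned reads of overlapping genes is not given in the sources used here, so levels within these groups carry that uncertainty. HOXB9, HOXC4, HOXC5 and HOXC6 were not found by symbol in that annotation, so overlaps of these genes were not assessed.

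The pools differed in HOX level more than most genes did, with pool 1 lowest and pool 3 highest. Of the 13 genes averaging 1 FPKM or more, 12 were lowest in pool 1 and highest in pool 3, or 92.3%, against 39.0% of the table at that level and 51.0% of the 3426 genes with a mean from 1 to under 6 FPKM, the band that holds these HOX genes. Lowest in pool 1 were 12 of the 13, against 51.6% of the table at that level, and highest in pool 3 were 13 of 13, against 52.0%. Over all 26 HOX genes the number with both was 18, or 69.2%, against 35.7% of the unfiltered table. Of the 13, 5 (HOXA2, HOXA3, HOXB2, HOXB6 and HOXC5) were under 1 FPKM in pool 1 and entered the group through the pools in which they were higher. Pools are replicates of 1 group and have no order, so these counts describe which libraries were high, and no test was made.

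The size of the difference ranged widely among the 13 genes. For the 13 genes, pool 3 minus pool 1 had a median of 1.05 on the log2(FPKM + 1) scale, against 0.13 over the table at 1 FPKM or more and 0.32 in the same band of levels. HOXB7 had the widest difference, at 1.69, followed by HOXB4 and HOXB6, at 1.48 and 1.47. HOXC4 had the narrowest, at 0.39, and the 3 HOXC genes lay between 0.39 and 0.69, against 0.67 to 1.12 for the 5 HOXA genes and 0.54 to 1.69 for the 5 HOXB genes. The range over the 3 pools exceeded 1 on this scale in 8 of the 13 genes, or 61.5%, against 7.06% of the table at that level and 11.5% in the band. Without the filter it did so in 8 of 26, against 5.51%. Among the 13, that number was 1 without pool 1 and 2 without pool 3, settings for which no share of the table was computed. The number was 4 (HOXA3, HOXB4, HOXB6 and HOXB7) when pools were rescaled by the median ratio, against 6.33% of the table. This step divided pool 1 by 0.938 and pool 3 by 1.07, which raised pool 1 and lowered pool 3. After that rescaling the median HOX difference between pools 3 and 1 was 0.91, against -0.04 over the table.

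Markers of stroma, muscle and vessels had the same pool pattern as the HOX genes. COL3A1, a stromal collagen, was at 47.64, 114.31 and 189.6 FPKM in pools 1, 2 and 3, and ACTG2, the smooth muscle actin of the gut, at 96.84, 175.72 and 309.18 FPKM. All 12 fibroblast and stroma markers and all 12 smooth muscle markers were lowest in pool 1 and highest in pool 3. So were 8 of 9 endothelial markers, against 39.0% of the table at 1 FPKM or more and 51.0% from 1 to under 6 FPKM. The median pool 3 minus pool 1 difference was 1.45, 1.69 and 1.24 for these lists on the log2(FPKM + 1) scale. The summed level ran from 247 FPKM in pool 1 to 759 FPKM in pool 3 for the stroma list, 524 to 1510 FPKM for the smooth muscle list and 96.2 to 231 FPKM for the endothelial list, and no defining marker of these lists was at 0. The median HOX level minus the median stroma marker level was taken within each pool, in log2(FPKM + 1). It was -3.16, -3.47 and -3.47 in pools 1, 2 and 3, a span of 0.31 between pools. The span was 0.15 against endothelial, 0.83 against smooth muscle and 1.42 against epithelial markers. It was not computed for crypt, enterocyte or immune markers. Median means were 2.14 FPKM for HOX genes, 3.87 for endothelial, 34.3 for stroma, 53.6 for smooth muscle and 140 for epithelial markers. This scale understates differences of low genes, so the spans do not rank cell types.

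Enterocyte markers did not share that pattern, and other epithelial markers were mixed. Of 12 enterocyte markers none was lowest in pool 1 and highest in pool 3, against 39.0% of the table at 1 FPKM or more. All 12 were lowest in pool 3, as were 3194 of the 11570 genes of the table at that level. The summed level of these 12 markers was 65607 FPKM in pool 1, 57662 in pool 2 and 22752 in pool 3. Of 9 general epithelial markers 3 (KRT8, KRT18 and CLDN3) had the HOX pattern and 5 the reverse. Over the table at that level 39.0% had the HOX pattern and 1944 of the 11570 genes the reverse. The keratin KRT18 was at 174.97, 247.21 and 352.56 FPKM. EPCAM and KRT20, the highest of these epithelial markers by mean, had the reverse. EPCAM was at 2227.22, 2007.31 and 1948.52 FPKM and KRT20 at 1257.1, 817.09 and 783.05 FPKM. Crypt stem and proliferating markers were lowest in pool 1 for 10 of 10 genes, against 51.6% of the table at 1 FPKM or more. Of these, 8 were also highest in pool 3, against 39.0% with both, and the median difference was 0.72. The part that tissue makeup has in the HOX differences was not tested, and in pooled tissue RNA fewer cells of a type and less RNA per cell cannot be told apart. The cell type that made the HOX transcripts cannot be read from these libraries.

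**Figure D3:**
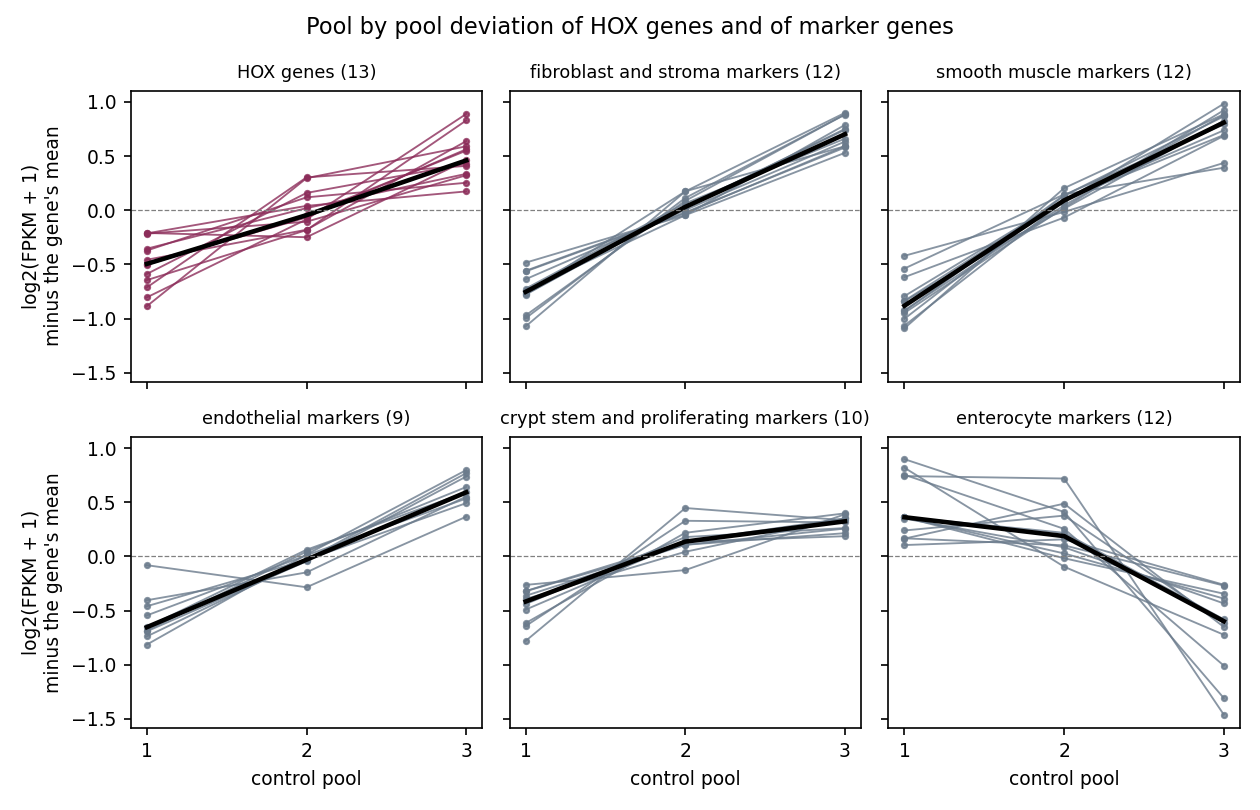
log2(FPKM + 1) minus the gene's mean over pools (y axis) in control pools 1 to 3 (x axis) for HOX genes and 5 marker lists, restricted to means of 1 FPKM or more (number in brackets); thin lines are genes and the thick line their median. HOX genes, stroma, muscle and endothelial markers are low in pool 1 and high in pool 3, and enterocyte markers are lowest in pool 3. All 10 genes of the crypt list have their minimum in pool 1, and 8 of them have their maximum in pool 3.

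Among the HOX cofactors, the MEIS genes differed most between pools. MEIS1 was at 3.07, 5.42 and 8.68 FPKM and MEIS2 at 3.23, 6.16 and 9.07 FPKM in pools 1, 2 and 3, so that pool 3 held 2.83 and 2.81 times the FPKM of pool 1. PBX3 was the most abundant cofactor, at 16.96, 19.45 and 20.12 FPKM, and PBX4 was at 4.22 ± 0.281 FPKM. The related PKNOX1 and PKNOX2 were at 3.29 ± 0.480 and 3.24 ± 0.860 FPKM. All 7 measured cofactors had a mean of at least 1 FPKM, against 73.8% of the whole table. Of these, 6 were lowest in pool 1 and highest in pool 3. That pattern was seen in 39.0% of the table at that level and in 51.0% from 1 to under 6 FPKM. The difference between MEIS and PBX genes was not tested.

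The CDX genes, homeobox relatives that act upstream of HOX genes and specify intestinal epithelium, did not share the pool pattern, and CDX1 and CDX2 were far more abundant than any HOX gene. CDX1 was at 155.41, 141.83 and 124.24 FPKM in pools 1, 2 and 3 and CDX2 at 94.51, 86.95 and 71.45 FPKM, both highest in pool 1. Both were already counted above among the general epithelial markers with the reverse pattern. CDX4 was at 3.77 ± 0.552 FPKM. PDX1, a factor of the duodenum and pancreas, was at 1.43 FPKM in pool 1 and at 0.38 and 0.25 FPKM in the others.

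Other genes of gut position also split between those of mesoderm and those of epithelium. Of 7 mesodermal factors averaging 1 FPKM or more, 6 were lowest in pool 1 and highest in pool 3. The share over the table at that level was 39.0%, and 51.0% from 1 to under 6 FPKM. TCF21, a factor of visceral mesenchyme, was at 29.73, 50.25 and 74.89 FPKM, and NKX2-3, a factor of intestinal mesoderm, at 18.36, 28.98 and 48.57 FPKM. PITX1 was at 8.08 ± 1.02 FPKM. The exception, BARX1, which is known for patterning the stomach mesenchyme, was at 2.37 FPKM in pool 1, listed at 0 in pool 2 and at 1.36 FPKM in pool 3. Among 9 epithelial factors with that mean, 3 had the HOX pattern and 4 the reverse. That reverse was seen in 1944 of the 11570 genes of the table at that level. GATA5, GATA6 and GATA4, factors of the small intestinal epithelium, were at 493 ± 145, 117 ± 32.5 and 24.6 ± 4.72 FPKM and were each highest in pool 1. SOX2, a foregut factor, was listed at 0 in pools 1 and 3 and at 0.17 FPKM in pool 2.

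Genes of bile acid handling, which are concentrated in the distal small intestine, gave no common pattern. The bile acid carrier FABP6 was at 100.68, 291.55 and 897.59 FPKM in pools 1, 2 and 3 and had the widest difference of the list, at 3.14 on the log2(FPKM + 1) scale. SLC10A2, the bile acid importer of the ileum, was at 2.24, 2.06 and 6.84 FPKM, likewise highest in pool 3, and these were the 2 genes of the list with a range over 1. The exporter genes SLC51A and SLC51B were at 288 ± 78.7 and 62.9 ± 7.47 FPKM and were lowest in pool 3, and the hormone FGF19 was at 34.96, 56.66 and 53.21 FPKM. Only FABP6 among the 6 genes was lowest in pool 1 and highest in pool 3, against 39.0% of the table at 1 FPKM or more. A range over 1 was seen in 7.06% of the table at that level. The labels do not give the level of the jejunum at which the mucosa was taken, and its part in the HOX differences was not tested.

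Genes of the retinoic acid pathway were mixed. ALDH1A1 and ALDH1A3, enzymes that make retinoic acid, were at 290 ± 63.1 and 19.0 ± 8.73 FPKM, and ALDH1A2, the main enzyme of the embryonic trunk, stayed between 0.23 and 0.50 FPKM. By pool, ALDH1A3 had 11.25 FPKM in pool 1, 17.34 in pool 2 and 28.46 in pool 3. The receptor RARA was at 31.2 ± 1.92 FPKM and the retinol dehydrogenase RDH10 at 16.7 ± 4.28 FPKM. Of the 10 averaging 1 FPKM or more, 5 were lowest in pool 1 and highest in pool 3. The share over the table at that level was 39.0%.

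Genes of the complexes that silence or maintain HOX clusters had a higher median level than the HOX genes. Their range over the pools stayed under 1, as it did for most genes of the table. Of 25 measured Polycomb genes 24 had a mean of at least 1 FPKM, against 73.8% of the whole table. The median of the means was 2.14 FPKM for the 13 HOX genes and 8.78 FPKM for these 24. None of the 24 had a range over 1 on the log2(FPKM + 1) scale, against 7.06% of the table at 1 FPKM or more. RBBP4, a histone-binding subunit, was at 67.1 ± 6.93 FPKM, PCGF2, a subunit of Polycomb complex 1, at 28.8 ± 7.19, EZH2, the methyltransferase, at 20.1 ± 3.32, and PHC2 at 20.0 ± 1.45. Of 12 measured MLL and trithorax genes 11 had that mean, and none had a range over 1. DPY30 and RBBP5, core subunits of the MLL complexes, were at 36.2 ± 3.40 and 23.2 ± 0.978 FPKM, PSIP1, which tethers MLL to chromatin, at 27.1 ± 6.42, and CTCF, which insulates domains within HOX clusters, at 25.6 ± 2.88. In all, 13 of the 24 Polycomb and 6 of the 11 MLL and trithorax genes were lowest in pool 1 and highest in pool 3. Of the table at 1 FPKM or more, 39.0% had that pattern. KMT2A, the MLL methyltransferase itself, was under 1 FPKM in every pool, at 0.55, 0.52 and 0.99 FPKM.

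**Figure D4:**
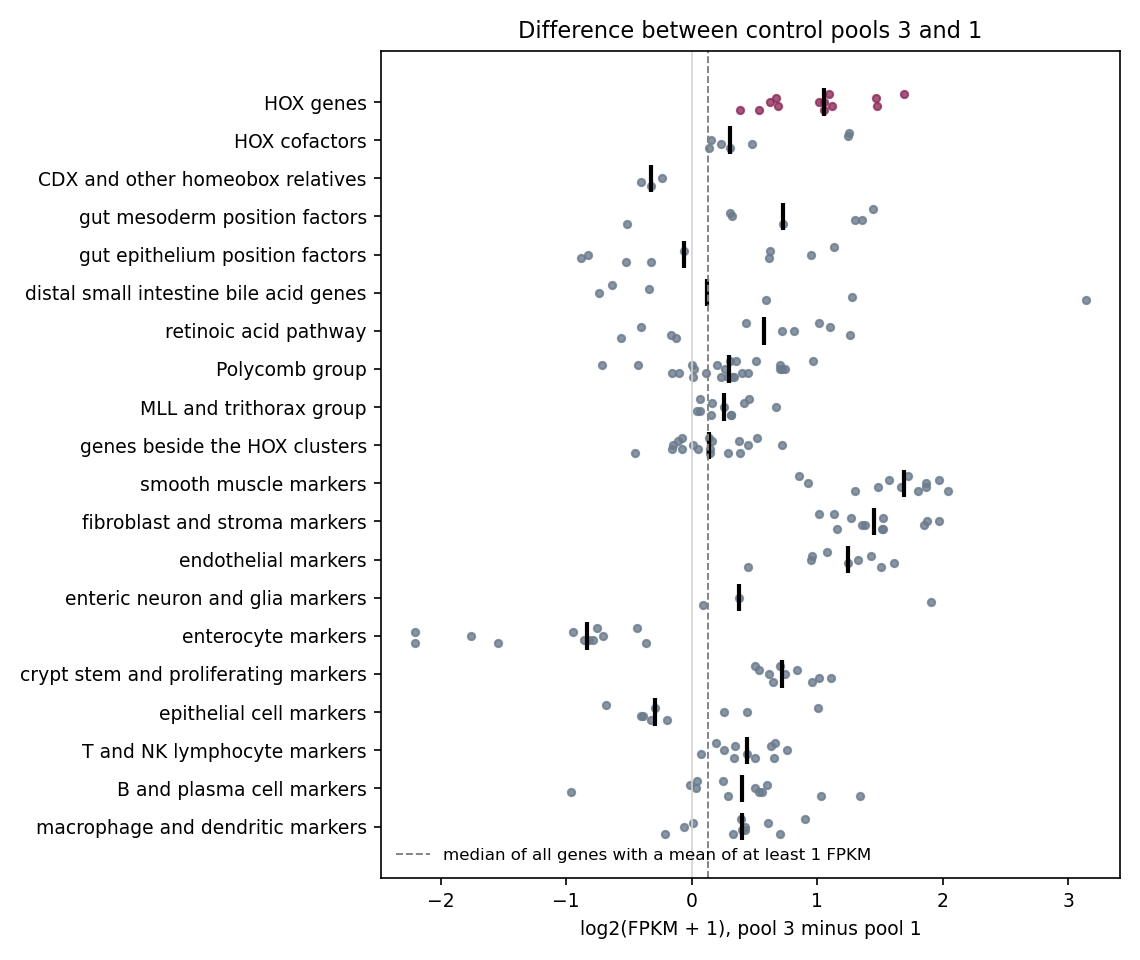
Pool 3 minus pool 1 difference in log2(FPKM + 1) (x axis) for HOX genes, companion lists and marker lists (rows), restricted to means of 1 FPKM or more; points are genes, thick ticks list medians, and the dashed line the median over the table at 0.13. The HOX median of 1.05 stands between those of gut mesoderm factors at 0.73 and endothelial markers at 1.24.

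Genes that flank the clusters were not low like the HOX genes. By gene order in GRCg7b, the nearest named genes with values on either side were SKAP2 and HIBADH for HOXA, CALCOCO2 and SKAP1 for HOXB, SMUG1 and ATP5G2 for HOXC, and MTX2 and LNPK for HOXD. The means of the HOX genes ran from 0.0133 to 5.11 FPKM, and those of the flanking genes from 9.15 FPKM for SMUG1 to 429 FPKM for ATP5G2. SKAP2, an adaptor protein beside the HOXA cluster, was at 125.12, 111.99 and 91.20 FPKM in pools 1, 2 and 3, and MTX2, a mitochondrial outer membrane protein beside the HOXD cluster, at 59.55, 67.12 and 65.52 FPKM. Only SMUG1 among the 8 was lowest in pool 1 and highest in pool 3. Of the 18 measured genes on the wider list of cluster neighbours, 4 had that pattern and none differed by more than 1 between pools. Over the table at 1 FPKM or more, these shares were 39.0% and 7.06%.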

How the data were processed

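RNA from jejunal mucosa was sequenced in 3 control pools of 4 hens each. Per the labels' protocols, libraries used either poly(A) beads or an rRNA removal kit, without saying which. Build GRCg6a and the tools HISAT2 2.0.1, HTSeq 0.6.1, cutadapt 1.9.1 and DESeq2 (no version) are listed per the submitters' processing notes. The strand setting is not given in the sources used here. The authors deposited, per the file headers, FPKM, used as deposited for 15675 of 15676 rows (1 row had no symbol and no FPKM), and an estimated count per pool. The count sums were 10380612, 11558435 and 11660868, but over rows, on the log2(value + 1) scale, counts and FPKM correlated at 0.009, 0.0063 and 0.0046, so the counts gave no expression value. Ratios of FPKM between 0.15 and 0.8 were put in bins of 0.04 on the log2 scale. Between pools 2 and 1 the fullest bin ran from 0 to 0.04, with 89 of 1162 genes. It ran from -0.08 to -0.04 for pool 3 over pool 1 and over pool 2, with 36 of 956 and 60 of 1125 genes. Absolute depth is unknown, so no counting interval is given, and low FPKM are the least precise. Another 6 columns of values match no sample and were not used.

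Differences are on log2(FPKM + 1), which understates those of low genes. Members and lists were chosen with earlier results of these data known. Of 245 listed symbols in 9 function and 10 marker lists, 222 matched by symbol. The genes to be named were all HOX genes, every matched gene of the cofactor and CDX lists and up to 4 of the highest in other function lists, but a few genes are not reported here. Other genes, such as BARX1, SOX2, ALDH1A2, KMT2A, SKAP2, SMUG1, MTX2 and the other flanking genes, were named after their values were seen. So were S100B, SLC10A2, KRT8, KRT18, CLDN3, RET, HAND2, ELAVL4 and SNAP25. RefSeq GRCg7b, with 22 of the 26 HOX symbols, gave gene order and overlap only. Calculations were tested on simulated data. Python 3.11.15, numpy 2.4.6, pandas 2.3.3 and matplotlib 3.10.9 were used.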

Additional observations from a re-analysis of the deposited data

How the results depend on the processing

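The number of HOX genes at a mean of at least 1 FPKM was 11 to 15 when 1 pool was left out and 1 (HOXB4) at a minimum of 5 FPKM. At a minimum of 0.5 FPKM the last detected number was 8 in HOXB and 8 in HOXC, and at 5 FPKM it was 4 in HOXB. Summing log2(FPKM + 1) gave shares of 34.0% for HOXA, 1.69% for HOXD, 18.5% for numbers 1 to 3, 79.6% for 4 to 8 and 1.9% for 9. Pairs with 1 direction in every pool numbered 17 of 22 neighbours and 16 of 27 same-number pairs without the filter on low values, against 5 of 8 and 6 of 9 with it. Without pool 1, 2 or 3 they numbered 11 of 12, 7 of 10 and 6 of 7 neighbours, and 11 of 12, 6 of 10 and 6 of 8 same-number pairs, over pair sets that differ with the means. At a minimum of 5 FPKM the pool pattern and the range over 1 rested on HOXB4 alone, with 1 gene each and a shift in pool 1 of -1.33. The range over 1 was found in 4 genes after rescaling by the median ratio, and in 1 to 8 with 1 pool left out. A shift is a pool's log2(FPKM + 1) minus the mean of the others, and the median HOX shift was -0.74, -0.07 and 0.69 in pools 1, 2 and 3. In pool 1 it was -1.04 without pool 2 and -0.46 without pool 3, in pool 2 -0.33 without pool 1 and 0.46 without pool 3, and in pool 3 0.33 without pool 1 and 1.04 without pool 2. Without the filter it was -0.47, -0.01 and 0.46. The causes were not tested, beyond there being fewer genes or pools. The pool comparisons with 1 pool left out were chosen after seeing the data, and gave 12 to 13 genes of 13. No paired analysis was possible because all pools belong to 1 group. The unknown depth limits statements on genes under 1 FPKM, HOXA9, HOXB9 and HOXD genes above all.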

Other observations

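Markers of enteric neurons and glia, another mesenchyme-embedded population, were low in these libraries. Of 11 measured markers 3, UCHL1, STMN2 and S100B, reached a mean of 1 FPKM, against 73.8% of the whole table. UCHL1 was at 5.32 ± 0.772 and the glial S100B at 2.77 ± 1.06 FPKM (SD, n = 3). The neuronal STMN2 was at 0.90, 5.28 and 6.11 FPKM in pools 1, 2 and 3. Only STMN2 among the 3 was lowest in pool 1 and highest in pool 3, against 39.0% of the table at that level. Over all 11 measured markers the number was 3, against 35.7% of the unfiltered table. RET, the receptor of enteric neural crest cells, was at 0.51, 1.02 and 0.98 FPKM. HAND2, a factor of gut mesenchyme and enteric neurons, was listed at 0 in pool 1 and at 1.03 and 0.80 FPKM in pools 2 and 3. ELAVL4, at 0.57, 0.32 and 0.22 FPKM, and SNAP25, at 0.71, 0.75 and 0.52 FPKM, were instead lowest in pool 3.

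Immune markers had smaller differences between pools 3 and 1 than the HOX genes, with list medians of 0.44 for T and NK lymphocytes, 0.40 for B and plasma cells and 0.40 for macrophages and dendritic cells on the log2(FPKM + 1) scale. Of these lists, 5 of 11, 7 of 12 and 7 of 11 genes were lowest in pool 1 and highest in pool 3. The share over the table at 1 FPKM or more was 39.0%. CD3D, a T cell receptor component, was at 434.44, 463.06 and 549.40 FPKM, and the light chain gene IGLL1 at 13360.14, 16361.05 and 27244.08 FPKM. CD74, the class II invariant chain, was at 3008 ± 67.0 FPKM, and the cathepsin CTSS at 234 ± 17.6 FPKM.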
